A study of Caenorhabditis elegans with 10 samples.

Results

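The 200 probe sets described here stood higher in adult worms than in larvae on every array of a Caenorhabditis elegans study of the nep-1 gene. For each probe set, the lowest log2 level over the 6 adult arrays was compared with the highest level over the 4 larval arrays, and the 200 probe sets with the largest difference were taken from 22548, after 77 control probe sets had been left out. The members were thus chosen by their adult and larval levels, and the rise with stage is described without a test. A probe set is a group of short probes on an Affymetrix array that reports the RNA of a gene or of several near-identical genes. Its log2 level is on a scale where a difference of 1 is a doubling.

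The third larval stage, L3, precedes the last larval stage and the adult. In textbook accounts, gonad growth continues through these stages, sperm are made late in larval life in the hermaphrodite, and oocytes, yolk proteins and eggshell components are made in the adult. The major sperm proteins are a family of near-identical cytoskeletal proteins of nematode sperm. They drive the crawling of the sperm cell and also serve as a signal to the oocyte. The gene nep-1 encodes a neprilysin, a membrane metallopeptidase of a family known for cleaving small peptides.

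The worms were wild type of the Bristol variety or carried a nep-1 allele obtained by EMS mutagenesis, a chemical treatment that most often changes single bases. The change in this allele is not described here. RNA came from whole worms, kept at 20 °C on agar with Escherichia coli OP50. There were 2 wild-type and 2 mutant arrays of L3 larvae, and 3 wild-type and 3 mutant arrays of adults. The sources used here give neither the adults' age nor how the mutant was outcrossed, and the mutant descriptions carry different numbers in larvae and in adults. Each group was the same tissue, the whole body, so fewer cells of a type and less RNA per cell cannot be told apart.

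By their descriptions, the arrays fell into mutant and wild-type pairs. Adult mutant 2 and adult wild-type 1 share the letter A, adult mutant 3 and adult wild-type 2 share the letter B, and adult mutant 1 and adult wild-type 3 carry short names with no letter. The unlettered adult pair stood below the other adults for most members. For mlt-8 and rol-6, both higher on average in larvae than in adults, it stood above them. Both genes have a name here because the authors listed them as decreased in mutant larvae, so they were not picked independently of genotype. In both genes adult mutant 1 exceeded the highest lettered array by less than the lettered arrays' own range. For mlt-8, a gene named for the moult, the log2 level was 10.54 to 11.90 in larvae, 5.90 to 8.20 on the 4 lettered adult arrays, 8.89 on adult mutant 1 and 10.65 on adult wild-type 3. For the cuticle collagen gene rol-6 it was 10.95 to 12.80 in larvae, 7.43 to 8.20 on the lettered adult arrays, 8.62 on adult mutant 1 and 10.60 on adult wild-type 3. The probe set of nep-1 itself lay at 6.01 to 7.32 in adult wild type and at 5.05 to 5.42 in adult mutants, and at 8.19 and 9.17 against 5.20 and 4.85 in larvae, so it separated the genotypes in both stages. Of all probe sets, 49.6% to 61.8% had a present call, the scanner software's verdict that a probe set was detected, on a given array.

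Gene names were at hand for few members. A probe set has a gene number in the files where it is on a list of changed transcripts made by the authors, and those lists hold 196 probe sets. Of the members, 2 were on such a list, 172852_x_at and 172905_x_at. Both are titled major sperm protein and each carries 3 gene numbers, those of msp-64 on chromosome II, msp-10 on chromosome IV and ZK546.3 on chromosome II. The other 198 members are given by probe set identifier, and no gene is assigned to them here. Lists of yolk, eggshell, oocyte, germ granule and meiosis genes could therefore not be counted among the members. The identifier's ending gives some information: in Affymetrix's naming, _s_at marks probes shared by several transcripts and _x_at marks probes that may also bind unrelated or related transcripts. Of the members, 81 ended in plain _at, 84 in _s_at and 35 in _x_at. These shares of 40.5%, 42.0% and 17.5% stand beside 70.2%, 24.3% and 5.44% of all probe sets.

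The difference between the lowest adult and the highest larval level ranged from 8.31 to 2.35 over the members, with a median of 3.40, and was over 4 for 66 of them. Of all probe sets, 3915, or 17.4%, had every adult array above every larval array, and the members are the upper end of these. The threshold did not fall in a gap. The last members, 174631_at, 174053_s_at and 179701_s_at, had values of 2.38, 2.36 and 2.35, and the next probe sets outside, 184300_s_at, 180073_s_at and 172156_x_at, had 2.33, 2.33 and 2.32.

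**Figure D1:**
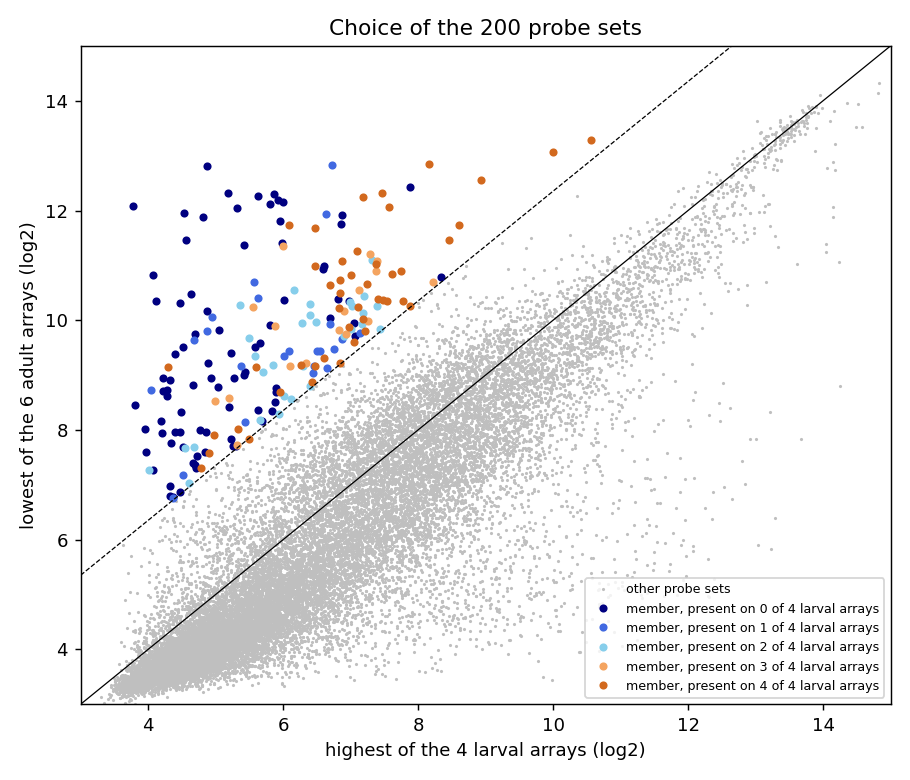
The highest log2 level over the 4 larval arrays (x axis) is plotted against the lowest over the 6 adult arrays (y axis), with 1 point per probe set. Members are coloured by the number of larval arrays with a present call, the solid line marks equality and the dashed line the threshold of 2.35 above it; the cloud of other probe sets continues up to the dashed line without a gap.

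The largest value belonged to 184864_at. Its log2 level was 3.62 and 3.48 in wild-type larvae, 3.77 and 3.48 in mutant larvae, 12.43, 12.46 and 12.22 in wild-type adults and 12.08, 12.12 and 12.63 in mutant adults. It was among the lowest members in larvae and was called present on 0 of 4 larval arrays and 6 of 6 adult arrays. The mean was 12.37 ± 0.13 (SD, n = 3) in adult wild type and 12.28 ± 0.31 (SD, n = 3) in adult mutants, and the adult arrays of the genotypes overlapped. The next, 190649_at, stood at 4.56 and 4.54 in wild-type larvae, 4.57 and 4.88 in mutant larvae, 13.04, 13.30 and 13.24 in wild-type adults and 12.82, 13.22 and 13.01 in mutant adults. All of the 12 members with the largest values lacked a present call on every larval array. Besides these 2 they were 180752_s_at, 171723_x_at, 180677_s_at, 191323_at, 186023_s_at, 172696_x_at, 186232_s_at, 172133_x_at, 172134_x_at and 194239_x_at, with values from 7.43 down to 6.27.

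The median member stood below the middle of the array in larvae and near its top in adults. The members' median log2 level on the larval arrays came to 5.59 and 5.50 for wild type and 5.61 and 5.54 for the mutant, beside medians of all probe sets of 5.83 to 5.91. In adults the wild-type medians were 11.04, 10.92 and 10.51, and those of the mutant were 9.86, 10.83 and 11.11, beside medians of all probe sets of 5.82 to 6.09. The members' median thus lay between percentiles 44.0 and 45.2 of an array in larvae and between 92.1 and 96.6 in adults. The mean adult level exceeded the mean larval level by a median of 5.04 log2 units, or 32.8-fold, with a range over members of 2.77 to 8.73. Taken by genotype, that median was 5.08 for wild-type worms and 4.86 for mutants. For the 84 members without a larval present call, the rise starts from a level not called detected, so its size is uncertain. The same ordering of adults above larvae held on the authors' scaled signals. These summarise the same arrays by which the members were chosen, so they give no independent support. The lowest adult signal was above the highest larval signal for 200 of 200 members. The median member signal was 45.0 to 66.8 on larval arrays and 1038 to 2742 on adult arrays.

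**Figure D2:**
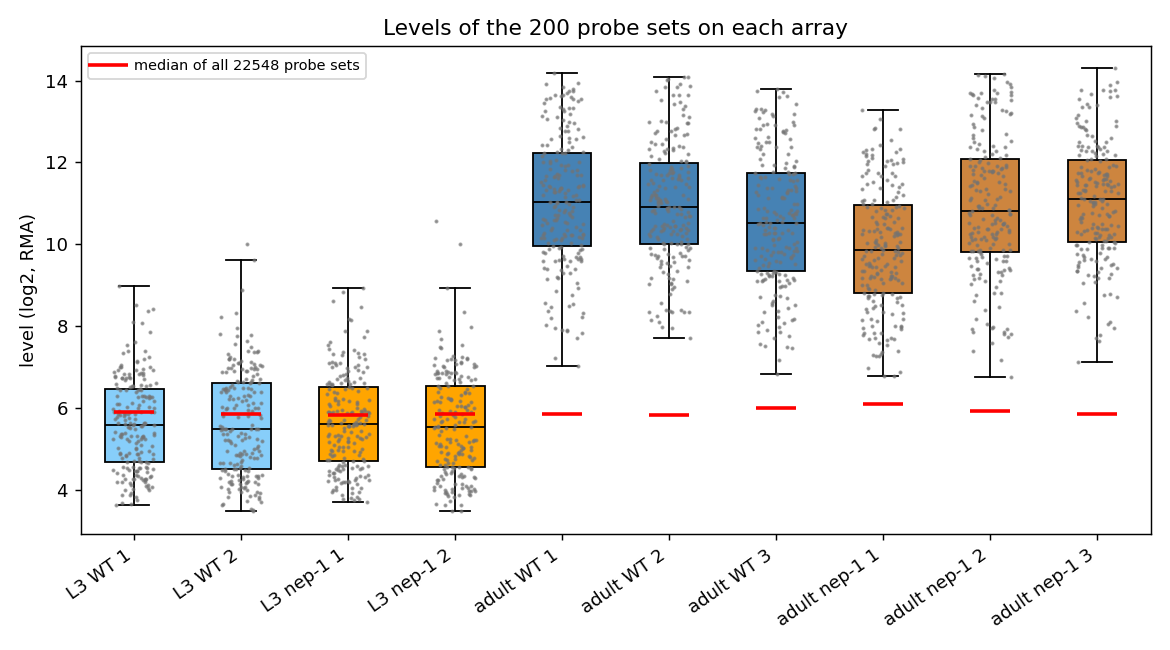
Log2 levels of the 200 members on each of the 10 arrays, with 1 grey point per member, boxes for the quartiles, whiskers to the farthest point within 1.5 box lengths, and a red bar for the median of all probe sets on that array. Larval medians lie between 5.50 and 5.61 and adult medians between 9.86, on adult nep-1 array 1, and 11.11.

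Larval detection varied more than the larval medians. In adults all 200 members were called present on 5 arrays, and 198 on adult mutant 1, where 181288_at and 177065_at were called absent. In larvae 73 and 101 members were present on the wild-type arrays and 62 and 82 on the mutant arrays, that is 36.5%, 50.5%, 31.0% and 41.0%. Both replicate 2 arrays thus detected more members than the replicate 1 array of the same genotype, and the same order held for all probe sets, at 57.6% against 52.2% in wild type and 54.1% against 49.6% in the mutant.

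By number of larval arrays, 84 members were present on 0 of 4 arrays, 23 on 1, 30 on 2, 17 on 3 and 46 on 4. The undetected class included 77 members called absent on all 4 arrays. Of the members 42.0% had no present call and 23.0% had 4, and of all probe sets 36.5% and 44.2%; low larval levels are part of how the members were chosen. The larval level followed the calls, with medians of 4.72, 5.74, 5.81, 6.48 and 6.63 log2 units from the class with 0 calls to that with 4. The adult level differed less between the classes, at 10.47 with 0 calls and 11.26 with 4. The larval means of the 84 members without a larval present call ran from 3.59 to 7.43, and 12 of them were above the highest median of a larval array, 5.91. The highest was 171741_x_at, at 7.86 and 6.90 in wild-type larvae and 7.88 and 7.09 in mutant larvae. The lack of a call thus did not always go with a low level.

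The members with the highest larval means were clear larval signals that were higher still in adults. The highest was 192672_s_at, at 8.99 and 10.01 in wild-type larvae, 8.92 and 10.57 in mutant larvae, 13.74, 14.07 and 13.41 in wild-type adults and 13.28, 13.71 and 13.96 in mutant adults. Next was 192671_at, with a larval mean of 9.04 and levels of 13.07 to 13.92 in adults. In both, the larval replicate 2 arrays were more than 1 log2 unit above the replicate 1 arrays in either genotype, while the genotypes overlapped. The next were 192390_at, 180976_s_at and 192036_at, with larval means of 8.78, 8.30 and 8.12. Only 8 members had any larval level over 8, and 31 had any adult level under 8.

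The adult arrays did not carry the members at the same height. Adult mutant 1 held the lowest adult level for 154 of 200 members, against 28.9% of all probe sets. Adult wild-type 2 held the highest for 123, against 19.1% of all probe sets, and 112 members had both. The lowest adult array enters the rule, so the threshold was set by adult mutant 1 for most members, and leaving that array out kept 170 of the 200 members. Both unlettered arrays were below all 4 lettered adult arrays for 118 members, or 59%, against 23.7% of all probe sets. They were above all 4 for 1 member, against 20.4% of all probe sets. The unlettered pair's mean was below that of the lettered adults for 192 of 200 members, with a median of -0.74 log2 units. Over all probe sets the median of that difference was -0.00 and 50.3% were below. Among the other 3715 probe sets with all adults above all larvae, it was -0.47 and 81.6% were below.

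Set on a scale from the larval mean at 0% to the mean of the lettered adults at 100%, the median member stood at 80.3% on adult mutant 1 and 90.2% on adult wild-type 3. On the lettered arrays the median was 99.0% and 104% in wild type and 97.3% and 101% in the mutant. The quartiles were 71.5% and 87.7% on adult mutant 1, and 85.2% and 97.1% on adult wild-type 3. The 200 probe sets that were most reduced from larva to adult by the same rule turned round stood at 84.4% of their fall on adult mutant 1 and at 65.1% on adult wild-type 3. In the unlettered pair the mutant array was farther from the other adults for the gained probe sets, and the wild-type array farther for the lost ones. Without the unlettered pair, the rule kept 160 of the 200 members. The levels of mlt-8 and rol-6 given above were also closest to the larval ones on this pair, and their part in the members' levels was not tested.

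**Figure D3:**
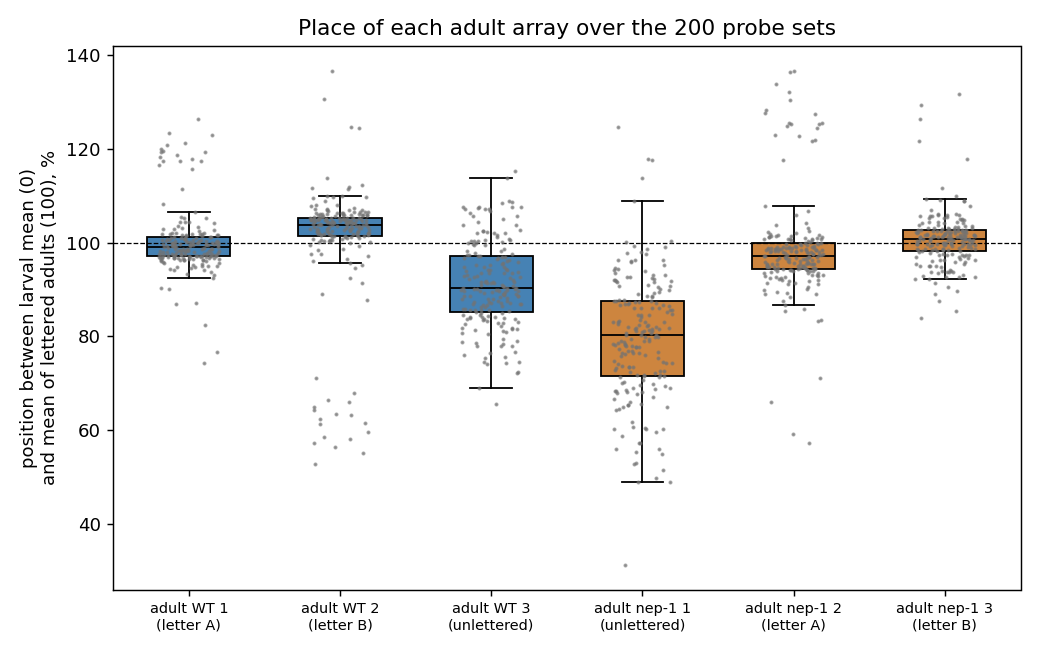
Position of each adult array, in percent, between a member's larval mean (0) and its mean over the 4 lettered adult arrays (100), with 1 point per member, boxes for the quartiles and whiskers to the farthest point within 1.5 box lengths. Medians are 80.3% on adult nep-1 array 1 and 90.2% on adult wild-type array 3, and a separate cluster of members lies near 60% on adult wild-type array 2.

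Some members were low on adult mutant 1 alone. For 177065_at the log2 level was 12.38, 12.70 and 11.71 in wild-type adults, 12.27 and 12.28 on adult mutants 2 and 3, and 6.87 on adult mutant 1, beside 4.25 to 4.48 in larvae. For 172673_x_at it was 12.85, 12.85 and 12.49 in wild-type adults, 12.38 and 12.81 on adult mutants 2 and 3, and 8.78 on adult mutant 1. For 180173_at the corresponding levels were 11.67, 11.58 and 10.65, then 11.11 and 11.75, and 7.96 on adult mutant 1. In each of the 3, a single array was several log2 units below the other mutants, which lay among or next to the wild-type arrays.

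In adults the genotype contrast compares nep-1 mutant with wild-type worms. Other differences between the strains cannot be told apart from nep-1 in it. By limma with Benjamini-Hochberg adjustment over all 22548 probe sets, 0 of 200 members passed an adjusted p of 0.05, and 0% of all probe sets did. At an unadjusted p under 0.05 there were 0 members and 0.306% of all probe sets, and the smallest member p was 0.122, for 180306_at, whose difference was -0.47 ± 0.27 (SE). The genotype fits given here, also those in larvae, did not use the array pairs, so differences between pairs widen their SE. With the pair as a block in limma, 8 members, or 4%, had an unadjusted p under 0.05, beside 2.76% of all probe sets. In that fit 0 members passed the adjusted threshold. The fitted difference, mutant minus wild type, was below 0 for 173 of 200 members, or 86.5%, against 53.5% of all probe sets, and its median was -0.22 log2 units, against -0.02. The size of that median depended on the unlettered pair, without which it was -0.11. Leaving out adult mutant 1 alone, which keeps its partner array, gave 0.08.

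The pairs differed in size. In the unlettered pair the mutant was lower for 180 of 200 members, with a median of -0.52 log2 units. In the A pair it was lower for 117, with a median of -0.07, and in the B pair for 133, with a median of -0.13. The medians over all probe sets in these pairs were -0.01, -0.03 and 0.01. In all 3 pairs the mutant was lower for 66 members, or 33%, against 12.8% of all probe sets, and it was higher in all 3 for 1 member, against 9.56% of all probe sets.

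**Figure D4:**
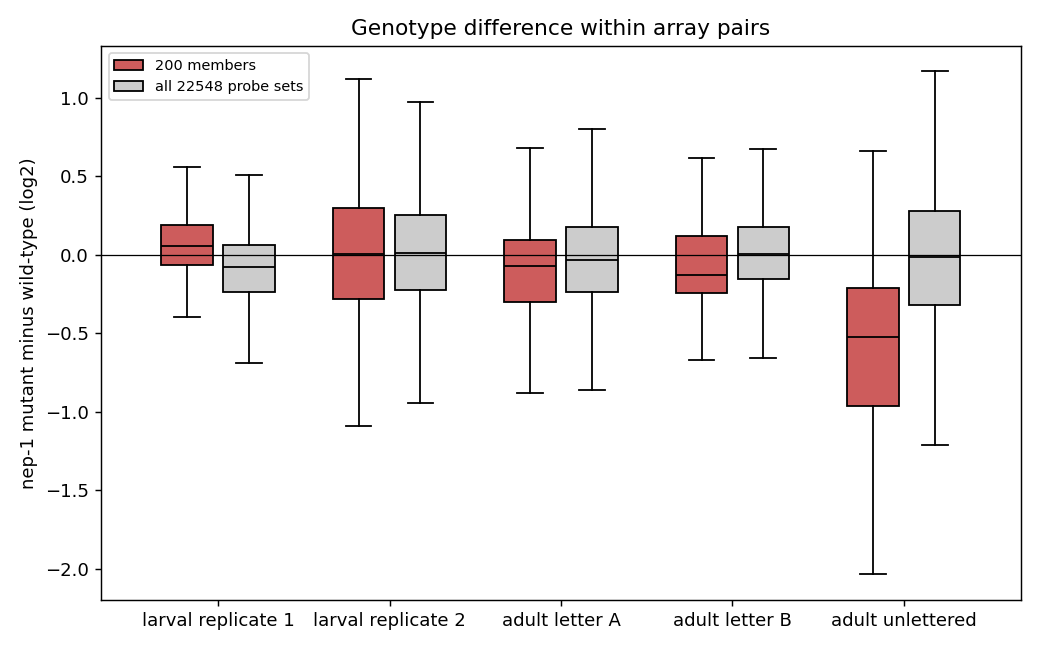
Mutant minus wild-type log2 difference within each of the 5 array pairs, for the 200 members (red) and all 22548 probe sets (grey), with boxes for the quartiles, whiskers to the farthest value within 1.5 box lengths and more distant values not drawn. The members' median is -0.52 in the unlettered adult pair and between -0.13 and 0.05 in the other 4 pairs.

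All 3 mutant arrays were below all 3 wild-type arrays for 4 members, or 2%, beside 1.95% of all probe sets, and above for 0 members, beside 1.52%. Neither share stood out from the background. The 4 were 171723_x_at, 172133_x_at, 172696_x_at and 193947_s_at. For 171723_x_at, the levels were 13.66, 13.84 and 13.73 in wild type and 12.32, 13.55 and 13.61 in the mutant, with adult mutant 1 far below the rest and the other mutants just below wild type. The fitted difference was -0.58 ± 0.38 (SE), with an adjusted p of 1 by limma. For 193947_s_at the levels were 11.18, 11.20 and 11.21 in wild type and 9.96, 10.97 and 10.95 in the mutant, and the difference was -0.57 ± 0.38 (SE), with an adjusted p of 1 by limma. The probe sets 172133_x_at and 172696_x_at followed the order of 171723_x_at, with differences of -0.62 ± 0.43 and -0.63 ± 0.42 (SE). For 172696_x_at the margin was narrow, with 13.595 on adult mutant 3 and 13.600 on adult wild-type 1. On the authors' scaled signals the genotypes overlapped for all 4 probe sets. For 171723_x_at, adult mutants 2 and 3 had signals of 15714 and 16826, above 10194 on adult wild-type 3.

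The authors' deposited table of change calls, made array against array, gave calls that depended on the arrays compared. Adult mutant 1 was called decreased against the 3 wild-type arrays for 158, 162 and 136 of 200 members, in the order wild-type 1 to 3, and increased for 7, 16 and 9. Of all probe sets in the authors' deposited table, 11.7%, 14.3% and 15.8% were decreased in these comparisons and 28.5%, 29.7% and 19.8% increased. In the same deposited table, adult mutant 2 was called increased against adult wild-type 3 for 104 members and adult mutant 3 for 105, while decreased calls there numbered 16 and 6. Of all probe sets in the deposited table, 6.82% and 5.18% were increased in these 2 comparisons and 20.3% and 22.9% decreased. Against adult wild-type 1, the deposited calls for adult mutant 2 were 49 decreased and 6 increased, and for adult mutant 3 they were 22 and 25, where all probe sets in the deposited table had 3.43% and 7.42%, and 6.53% and 4.25%. Against adult wild-type 2, they were 102 decreased and 24 increased for adult mutant 2, and 32 of each for adult mutant 3, where all probe sets in the deposited table had 13.9% and 13.1%, and 8.71% and 2.97%. No member reached 7 of 9 decreased or 7 of 9 increased calls in the authors' deposited table. Over all probe sets 9 and 4 did.

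The 2 probe sets titled major sperm protein showed a pattern of their own among the adults. For 172905_x_at the log2 level was 13.69, 10.37 and 13.14 in wild-type adults and 11.82, 13.96 and 12.38 in mutant adults. For 172852_x_at the wild-type levels were 13.55, 10.12 and 12.92 and the mutant levels 11.57, 14.06 and 12.07. Both were highest on the 2 arrays of the A pair and lowest on adult wild-type 2, and the genotypes overlapped.

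Within pairs, the mutant was above wild type for 172905_x_at by 0.27 in A and 2.01 in B, and the unlettered pair gave -1.32. The corresponding differences for 172852_x_at were 0.51, 1.95 and -1.35. The fitted adult differences were 0.32 ± 0.86 and 0.37 ± 0.93 (SE), with adjusted p of 1 by limma. Their sign rested on single arrays: without adult wild-type 2 they were -0.70 and -0.67, and without adult mutant 2 they were -0.30 and -0.38. The authors' deposited table called both increased in 4 of 9 adult comparisons and decreased in 3.

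In larvae the same probe sets were below their adult levels. Their wild-type larval levels were above the medians of all probe sets on those arrays, 5.91 and 5.87. In mutant larvae they lay on both sides of the medians, 5.83 and 5.85. For 172905_x_at the levels were 6.44 and 7.48 in wild type and 5.69 and 5.86 in the mutant, with a present call on 4 of 4 arrays. For 172852_x_at they were 6.26 and 7.19 in wild type and 5.87 and 5.21 in the mutant, with a present call on the 2 wild-type arrays. The mutant arrays were below the wild-type arrays in both. The fitted larval differences were -1.18 ± 1.06 for 172905_x_at and -1.18 ± 1.13 for 172852_x_at (SE), with adjusted p of 1 by limma. In the authors' deposited table both had a decreased call in 3 of 4 larval comparisons, which is what placed them on the authors' list.

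A block of _x_at members shared this adult pattern. The mean of the A pair was over 1 log2 unit above that of the B pair for 18 members, or 9%, against 3.19% of all probe sets, and all 18 ended in _x_at. Both major sperm protein probe sets were among the 18. The gap between the pairs was -2.41 to -3.15 log2 units, B minus A, with no member between the block and -0.79. Adult wild-type 2 was the lowest and adult mutant 2 the highest adult array for 18 of 18. The medians of the block were 13.25, 9.85 and 12.48 in wild-type adults and 10.97, 13.64 and 11.76 in mutant adults. The largest gap was that of 172904_x_at, at 12.02, 8.34 and 10.53 in wild-type adults and 8.50, 12.52 and 9.90 in mutant adults.

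Measured by likeness to the mean profile of the major sperm protein probe sets over the 6 adult arrays, 15 of the other 198 members had a Pearson correlation above 0.9, or 7.58%, against 1.1% of all other probe sets. The nearest were 172629_x_at, 172907_x_at, 172893_x_at, 172857_x_at and 172903_x_at, all with correlations of 0.998 to 0.9995. All members above 0.9 belonged to the block of 18, so the correlation restates the adult values that set the block. These correlations rest on 6 points from the same arrays. Of the 18, 16 have no gene assigned here, and whether they report the same RNA was not tested. The block was chosen after its values were seen and carries no test. In larvae the mutant was below wild type in both array pairs for 15 of the 18, or 83.3%, against 22.5% of all members and 32.0% of all probe sets. The block's larval medians were 6.18 and 6.94 in wild type and 5.80 and 5.76 in the mutant. Present calls numbered 8 and 13 of 18 on the wild-type larval arrays and 2 and 3 on the mutant ones. In adults the mutant was lower for 0 of 18 in the A pair, 0 in the B pair and 17 in the unlettered pair. Since the 18 rose and fell alike over the adult arrays, they may not be separate observations.

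The opposite order, the B pair over 1 log2 unit above the A pair, was found for 7 members, or 3.5%, against 2.24% of all probe sets. The largest was 173403_s_at, at 8.48, 11.71 and 10.27 in wild-type adults and 10.73, 7.60 and 11.45 in mutant adults, beside 4.11 to 4.85 in larvae. For 190831_s_at the levels were 8.58, 10.91 and 8.97 in wild-type adults and 9.44, 7.95 and 10.75 in mutant adults. In these 2, the arrays of the A pair were the lowest adults. The remaining 175 members had pair means within 1 log2 unit of each other, with a median gap of 0.23. The genotypes overlapped in both blocks.

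**Figure D5:**
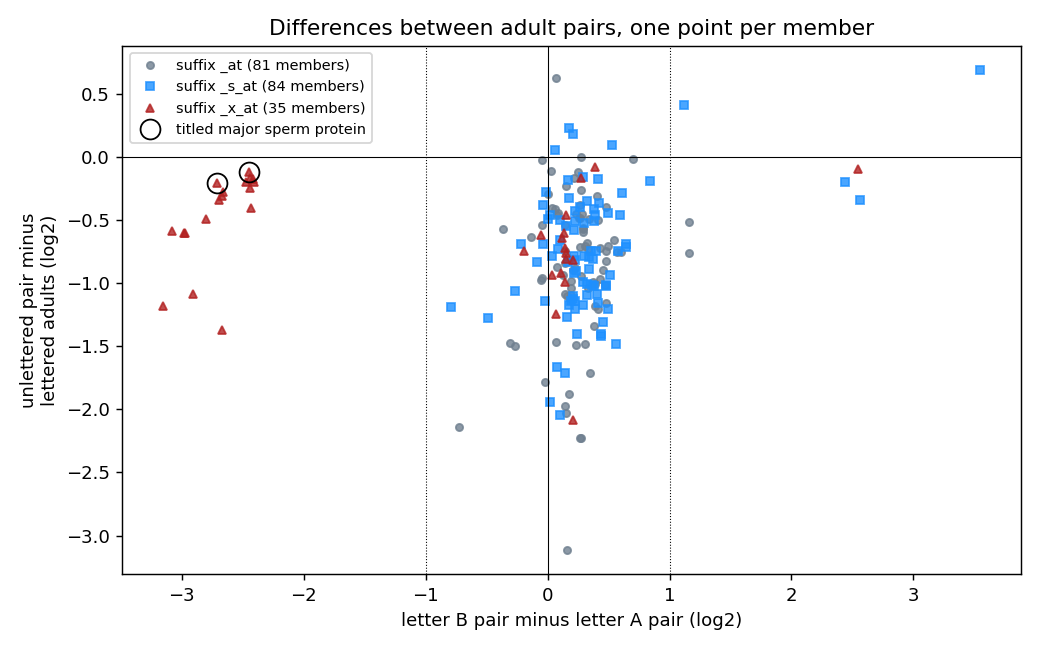
For each member, the mean of the B pair minus the mean of the A pair (x axis) is plotted against the mean of the unlettered pair minus the mean of the 4 lettered adult arrays (y axis), both in log2 units, with shape and colour by identifier ending and dotted lines at -1 and 1. The 18 _x_at members at the left, which include the circled major sperm protein probe sets, lie between -3.15 and -2.41, and 192 of 200 members lie below 0 on the y axis.

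The spread between arrays of a group was described by the SD of each probe set's levels. The median within-group SD was 0.43 in wild-type adults and 0.68 in mutant adults, against 0.26 and 0.36 over all probe sets (n = 3 arrays each). In larvae it was 0.23 for wild type and 0.21 for the mutant, against 0.21 and 0.25 (n = 2 arrays each).

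In larvae the members' genotype differences ranged from -1.20 to 0.62 log2 units, and 5 members, all in the block of 18, differed by over 1. By limma, 0 of 200 members passed an adjusted p of 0.05, beside 0% of all probe sets, and 0 had an unadjusted p under 0.05, beside 0.665%. The median difference, mutant minus wild type, was 0.05 log2 units, against -0.04 for all probe sets. It was below 0 for 85 members, or 42.5%, against 57.5% of all probe sets. Both mutant arrays were below both wild-type arrays for 25 members, or 12.5%, beside 12.6% of all probe sets, and above for 31, or 15.5%, beside 7.62%. The test of whether the adult difference departs from the larval difference also found 0 members at an adjusted p of 0.05, beside 0% of all probe sets, and 0 at an unadjusted p under 0.05, beside 0.408%. The median of that departure was -0.29 log2 units, against 0.02 for all probe sets. The departure was below 0 for 158 members, or 79%, against 46.9% of all probe sets. The members' median was -0.19 without the unlettered pair, and 0.02 without adult mutant 1 alone.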

How the data were processed

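The authors hybridised biotin-labelled RNA to 10 Affymetrix arrays, made with a one-cycle 3' protocol per the labels. The deposited log2 values come from RMA (version not given), per the submitters' processing notes. The scaled signal intensity (target 300), the detection calls and the change calls were deposited by the authors, per the file headers. The gene numbers (other values) come from the authors' deposited lists, and symbols from RefSeq's gene table. Another 50 per-array columns, repeated signals and calls, detection p-values and log ratios, were not used.

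Genotype contrasts were fitted with limma 3.58.1 (R 4.3.3) as 4 group means over all 10 arrays, with Benjamini-Hochberg adjustment over 22548 probe sets and a threshold of 0.05. The residual degrees of freedom were 6, and the number of arrays limits the precision. The same code was tested on simulated data with independent noise on each array. That setting has no array pairs, so it does not show how the fits behave with the pairs present. The titles call the replicates biological; nothing else says that they came from separate cultures, so p-values may measure technical spread. Members, lists and tests were chosen with earlier results of these data known. Named were the 12 members with the largest rule value, those just inside and outside the threshold and those with the highest larval means. Also named were those whose adult genotypes do not overlap in log2 level and those on the authors' lists. Probe sets low on adult mutant 1 and the block set by the A and B pairs were chosen after their values were seen. So were 171741_x_at and the member with the smallest p.

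Array numbers in the titles do not pair the adults: the deviations of same-numbered arrays from their group means correlated at -0.536, -0.222 and -0.652. The description pairs do, at 0.612, 0.647 and 0.623 in adults, and at 0.561 in larvae, where 2 arrays per genotype fix a single value. Alternatives were other normalisations, filters and fits, blocks and leaving out arrays.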

Additional observations from a re-analysis of the deposited data

How the results depend on the processing

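The count of members past an adjusted p of 0.05 was 0 for the adult, larval and interaction contrasts under every alternative run. With the description pair as a block it was also 0, and the members at an unadjusted p under 0.05 were 8 in adults, 2 in larvae and 6 for the interaction, against 0 in each without it; of all probe sets, 2.76%, 2.7% and 2.3% passed in these fits. As a random block the pair gave 4, 0 and 1, beside 2.47%, 3.21% and 2.58% of all probe sets. Without adult mutant 3 the adult count was 24, or 12%, beside 2.06% of all probe sets. The title number as a replicate block gave 0 members too, and a median of -0.22 in adults. The members' median adult difference was -0.22, from -0.45 without adult mutant 3 to 0.08 without adult mutant 1, -0.11 without the unlettered pair and -0.05 with array weights. The interaction median was -0.50 to 0.02 over the same omissions. The larval median was 0.05, moved to 0.18 on the scaled signals, and was -0.04 without larval mutant 1 and 0.08 without larval mutant 2. For 172852_x_at and 172905_x_at the adult differences of 0.37 and 0.32 turned to -0.67 and -0.70 without adult wild-type 2, and to -0.38 and -0.30 without adult mutant 2; their highest values with 1 array left out were 1.05 and 0.96, without adult wild-type 1. The cause was not tested. Of the 200 members, 160 remained without the unlettered pair, 169 on the scaled signals, 191 after quantile normalisation, 196 after centring and 170 to 200 with 1 array left out. A setting with 1 probe set per gene was not run, since few probe sets have a gene here, and the interaction has no fit for each stage alone. Detection limits the larval levels: 84 members had no larval present call.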
